A study of Mus musculus with 4 samples.

Results

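Desmosomes are the spot-like junctions that hold keratinocytes together, and their 10 genes described here are Dsg1a, Dsg1b, Dsg3, Dsc1, Dsc3, Dsp, Jup, Pkp1, Pkp3 and Perp. They were taken by symbol from a deposited table of 56493 genes, in which all 10 were found, 1 row each. The rule for the members names genes and uses no measured value, although members and lists were drawn up with earlier results of these data known.

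The RNA came from mouse dorsal epidermis that had been parted from the dermis with sodium thiocyanate, and libraries read the 3' ends of transcripts. The 2 knockout libraries (cKO) came from mice with epithelial loss of Stim1 and Stim2, made with a Cre recombinase under the keratin 14 promoter (K14-Cre). The 2 control libraries came from mice with the same floxed alleles (Stim1/2 fl/fl). The labels do not say whether controls carried Cre, and they give no age, sex, strain or treatment other than the tissue preparation. K14-Cre acts in keratin 14-expressing epithelium, so other cells of the sheet keep both genes. The labels do not state that the 2 libraries of a group came from separate mice, and p-values here measure the spread between libraries.

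STIM1 and STIM2 sense calcium in the endoplasmic reticulum and, as that store runs low, gate channels that let calcium in from outside. Desmosomes depend on calcium from outside the cell. Their cadherins, the desmogleins and desmocollins, need calcium to bind those of the neighbouring cell. Inside the cell, plakoglobin (Jup) and the plakophilins (Pkp1, Pkp3) join the cadherin tails to desmoplakin (Dsp), which anchors keratin filaments. PERP is a membrane protein of desmosomes and a target of the transcription factor p63. In epidermis the cadherins are layered. Desmoglein 1 and desmocollin 1 belong mainly to the suprabasal layers, together with most plakophilin 1. Desmoglein 3 and desmocollin 3 are strongest in the lower layers, and the other 4 members are found in all living layers. Mice carry copies of the desmoglein 1 gene, of which Dsg1a and Dsg1b are members here. Layers were not separated in these samples, so the layer names below are background and not a measurement.

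Total counts ranged from 118858 in cKO replicate 2 to 322426 in control replicate 2, a 2.71-fold range. The targeted genes had low counts. Stim1 was counted 23 and 6 times in cKO, 24 and 62 times in control, which gave a log2 fold change of -0.98 ± 0.52 (SE) with an adjusted p of 0.671 in edgeR's quasi-likelihood test. Stim2 was counted 0 and 1 times in cKO, 3 and 18 times in control, and was under the count filter. Stim1 was lower in both cKO libraries than in both control libraries, as were 19.6% of all tested genes, without passing the test. Stim2, not tested, had the same order in normalised counts. That order rested on 1 count in cKO replicate 2 against 3 in control replicate 1, too few to resolve a difference. Over all genes, the test called 28 genes higher and 8 lower in cKO out of 4243 tested, or 0.66% and 0.189%, at a Benjamini-Hochberg adjusted p under 0.05. With library totals as the only scaling, the median of all genes moved by -0.24 (log2) and the split was 26 higher and 15 lower. Keratinocyte markers were present in all 4 libraries, with summed levels of the basal list (Krt5, Krt14, Col17a1, Itga6, Itgb4) of 7772 and 4574 CPM in cKO and 2914 and 2532 CPM in control. Of these 5 genes 0 were called in the main test. Only Krt14 had both cKO values above both control values, as did 18.9% of all tested genes. The suprabasal list (Krt1, Krt10, Krtdap, Sbsn) summed to 14447 and 9620 CPM in cKO and 5245 and 12703 CPM in control, which overlapped. CPM are counts per summed count of the tested genes, on the usual scale, after TMM normalisation. The 8 skeletal muscle markers summed to 44.5 and 89.9 CPM in cKO against 1414 and 932 CPM in control. Of the 8, 6 were tested, and these passed the count filter only through the control libraries, which favours lower values in cKO. All 6 had both cKO values below both control values, against 19.6% of all tested genes, and 4 were called lower by edgeR, against 0.189%. Myh4, Pvalb, Tnnt3 and Actn3 were at 0 in both cKO libraries. The 7 hair shaft and inner root sheath markers summed to 549.9 and 416 CPM in cKO and 1628 and 1632 CPM in control, with 0 of 3 tested called in the main test and Krt27 and Krt31 at 0 throughout. The sums of 6 fibroblast markers (36.4 and 607 CPM in cKO, 160.1 and 102 CPM in control, Pdgfra at 0 throughout) overlapped between groups. The 5 T cell markers summed to 68.7 and 169 CPM in cKO and 277 and 217 CPM in control, with 0 of 2 tested called and Trdc at 0 in cKO. The sums of the 5 sebaceous gland markers went the other way, at 611 and 1214 CPM in cKO and 368 and 444 CPM in control, with 0 of 3 tested called. The tested genes differed in direction, with log2 fold changes of 1.05 for Scd1, 2.34 for Elovl3 and -0.60 for Far2. Sums of the Langerhans cell and melanocyte markers overlapped between groups, and those of the endothelial markers were at most 6.39 CPM. The part that these cells take in the desmosome results was not tested. In bulk tissue, fewer cells of a type cannot be told apart from less RNA per cell.

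Of the 10 desmosome genes, 9 passed the count filter and were tested; Dsg3 did not. None of the 9 was called at an adjusted p under 0.05 with edgeR, against 0.848% of all tested genes. At an unadjusted p under 0.05 there were 2 members, Dsg1a and Dsc3, both lower in cKO, where 8.39% of all tested genes passed it, 4.17% lower and 4.22% higher. DESeq2 and limma-voom also called 0 members. The median log2 fold change of the 9 tested members was -0.46, and that of all tested genes was 0.01. A fold change below 0 was found in 7 of the 9, where 49.6% of all tested genes had one. The 7 include Jup, at -0.003, whose sign changed with the scaling. Both cKO values lay below both control values in 4 members (Dsg1a, Dsc3, Dsp and Pkp3), against 19.6% of tested genes, and in 0 tested members both lay above; in either direction 38.5% of tested genes did not overlap. Together the 10 genes took 0.572% of all counts in cKO replicate 1 (95% Wilson interval 0.545% to 0.601%) and 0.406% in cKO replicate 2 (0.371% to 0.443%). In control they took 0.747% in replicate 1 (0.711% to 0.786%) and 1.15% in replicate 2 (1.11% to 1.19%). These intervals cover counting error only, and libraries of the same group lay farther apart than that.

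**Figure D1:**
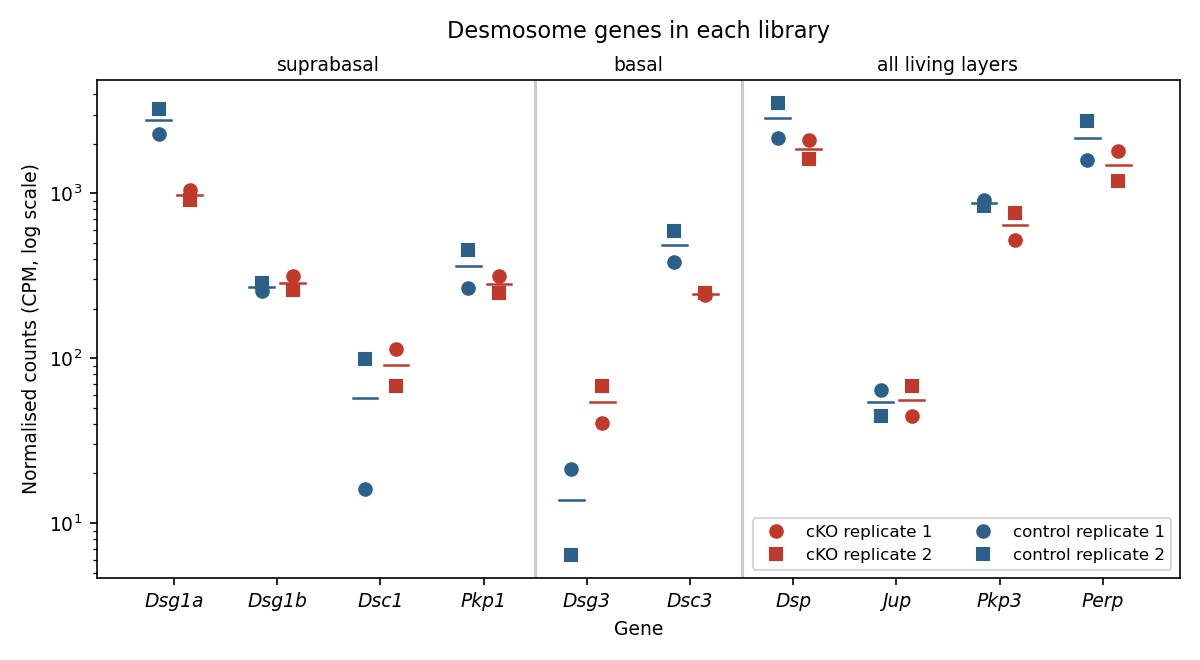
Normalised counts (CPM, log axis) of the 10 desmosome genes in each library, with cKO in red, control in blue, circles for replicate 1, squares for replicate 2 and short lines for group means; columns are grouped by the layer in which each protein is best known. Both Dsg1a values in cKO, 1039 and 910.3 CPM, lie below both control values, 2295 and 3257 CPM, while the 4 values of Dsg1b lie between 256.1 and 315 CPM.

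Among the suprabasal cadherins, Dsg1a had the widest gap between genotypes. Dsg1a (ENSMUSG00000069441, chromosome 18, 20443868 to 20476407, plus strand) encodes a desmoglein 1, the cadherin cut by exfoliative toxins and bound by antibodies in pemphigus foliaceus. It was counted 257 and 81 times in cKO, 430 and 1020 times in control. In normalised counts this was 1039 and 910.3 CPM in cKO and 2295 and 3257 CPM in control. The 2 cKO libraries were close to each other and both were low, while control replicate 2 was 1.42-fold above control replicate 1. The cKO mean was 975 ± 91.1 CPM (SD, n = 2) and the control mean was 2776 ± 681 CPM (SD, n = 2). The difference was a log2 fold change of -1.51 ± 0.43 (SE) with a 95% interval from -2.44 to -0.58, a 2.84-fold lower level in cKO. The unadjusted p was 0.0039 and the edgeR adjusted p over all genes was 0.184, so the difference did not pass the threshold. DESeq2 gave an adjusted p of 0.0517. With the same-numbered libraries as a block the adjusted p was 0.659.

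Dsg1b, the neighbouring desmoglein 1 copy, did not share this gap. Dsg1b (ENSMUSG00000061928, chromosome 18, 20509786 to 20543253, plus strand) was counted 78 and 23 times in cKO, 48 and 89 times in control. The levels were 315 and 258 CPM in cKO and 256.1 and 284 CPM in control. The groups overlapped and the 4 libraries spanned a 1.23-fold range. Its log2 fold change was 0.10 ± 0.43 (SE), or -0.15 with library totals as the scaling, with a 95% interval from -0.82 to 1.02 (edgeR adjusted p 0.993). That interval leaves room for a change of nearly 1 log2 unit either way. The difference between the copies was read within each library, where no scaling enters, after their values had been seen. Of the counts on both copies, Dsg1a took 76.7% in cKO replicate 1 (95% Wilson interval 71.9% to 80.9%) and 77.9% in cKO replicate 2 (69.0% to 84.8%). Its control shares were 89.96% (86.9% to 92.3%) for replicate 1 and 91.97% (90.2% to 93.4%) for replicate 2. The intervals of the 2 cKO libraries overlapped each other and lay wholly below those of the 2 control libraries. These intervals cover counting error only and not the spread between libraries. The log2 ratio of Dsg1a to Dsg1b was 1.75 ± 0.06 in cKO and 3.33 ± 0.26 in control (SD, n = 2), a difference of -1.58. An exact two-sided permutation test over libraries gave p = 0.333, the smallest that 2 against 2 libraries allow, so this design cannot reach 0.05 for a ratio.

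How reads were split between the copies bears on this share. The longest transcripts of Dsg1a and Dsg1b in GENCODE M21 are 96.2% identical over 3599 aligned bases, and Dsg1a and Dsg1c are 94.3% identical over 1752. The last 500 bases, where a 3' library reads, differ more. Those of Dsg1a had no match of at least 100 bases at 90% identity in any other gene. Those of Dsg1b matched Dsg1a over 162 bases at 93.2% and Dsg1c over 123 bases at 96.7%. Whether reads with several alignments were counted is not given in the sources used here. Summing the 3 copies avoids the split of counted reads between them, but cannot restore shared reads if these were left uncounted. Together Dsg1a, Dsg1b and Dsg1c were counted 353 and 107 times in cKO, 490 and 1132 times in control, or 1428 and 1202 CPM against 2614 and 3615 CPM. The summed log2 fold change was -1.24 ± 0.43 (SE), with a 95% interval from -2.17 to -0.32 (unadjusted p 0.0124, edgeR adjusted p 0.359). Both cKO sums lay below both control sums.

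Dsc1, the suprabasal desmocollin, was at low counts and did not follow Dsg1a. Dsc1 (ENSMUSG00000044322, chromosome 18, 20217241 to 20247928, minus strand) was counted 28 and 6 times in cKO, 3 and 31 times in control. The levels were 113 and 67.4 CPM in cKO and 16.01 and 98.996 CPM in control. Control replicate 1 stood alone at the bottom, 6.18-fold below control replicate 2, and the groups overlapped. The fitted log2 fold change was 0.62 ± 0.74 (SE), with a 95% interval from -0.96 to 2.21 (edgeR adjusted p 0.936). It was -0.08 without control replicate 1 and 2.51 without control replicate 2. Among the 1972 other genes that averaged 100 CPM or more, Flg2, Rab5a and Lce1b were nearest to Dsc1 over the 4 libraries. Their Euclidean distances of centred log2 CPM were 0.25, 0.34 and 0.35. Flg2 encodes filaggrin 2 and Lce1b a late cornified envelope protein, both of the outer epidermis, and Rab5a encodes a GTPase of early endosomes. All 3 were lowest in control replicate 1, with 336, 42.7 and 117 CPM there, which a choice by distance to Dsc1 favours. Within 0.5 of Dsc1 lay 7 of the 1972 genes.

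Pkp1 encodes plakophilin 1, which clusters cadherins and desmoplakin in the upper layers. Pkp1 (ENSMUSG00000026413, chromosome 1, 135799133 to 135846945, minus strand) was counted 78 and 22 times in cKO, 50 and 142 times in control. The levels were 315 and 247 CPM in cKO and 267 and 453 CPM in control, and the groups overlapped. The log2 fold change was -0.35 ± 0.45 (SE), with a 95% interval from -1.32 to 0.62 (edgeR adjusted p 0.953), and it became 0.11 without control replicate 2.

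The estimates for the basal cadherins had opposite signs, but Dsc3 was not called and Dsg3 was not tested in the main fit. Dsc3 encodes desmocollin 3, the main desmocollin of the lower epidermis. Dsc3 (ENSMUSG00000059898, chromosome 18, 20093987 to 20135408, minus strand) was counted 60 and 22 times in cKO, 72 and 184 times in control. The levels were 243 and 247 CPM in cKO and 384 and 588 CPM in control. Both cKO libraries were at nearly the same level, below both control libraries. The cKO mean was 245 ± 3.28 CPM (SD, n = 2) and the control mean was 486 ± 144 CPM (SD, n = 2). Its log2 fold change was -0.99 ± 0.44 (SE), with a 95% interval from -1.94 to -0.05. Its unadjusted p was 0.0411 and its edgeR adjusted p 0.555, and without control replicate 2 it was -0.63. By the same measure as for Dsc1, the nearest genes to Dsc3 were Ppfibp2, Npepps and Mtss1, at distances of 0.07, 0.13 and 0.15, and 67 of the 1972 genes lay within 0.5 of it. Ppfibp2 encodes a liprin, Npepps an aminopeptidase and Mtss1 an actin-binding protein.

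Dsg3 encodes desmoglein 3, the antigen of pemphigus vulgaris. Dsg3 (ENSMUSG00000056632, chromosome 18, 20643331 to 20680516, plus strand) was counted 10 and 6 times in cKO, 4 and 2 times in control. The levels were 40.4 and 67.4 CPM in cKO and 21.3 and 6.39 CPM in control. Both cKO values lay above both control values, but a count of 0 alone would allow up to 12.1 and 33.7 CPM in the cKO libraries and 16.01 and 9.58 CPM in the control libraries, taken as 3 counts. Dsg3 fell under the count filter of the main test, and its value is taken from the fit without a filter. The log2 fold change there was 1.87 (SE 1.02), with a 95% interval from -0.13 to 3.87 (unadjusted p 0.0667, edgeR adjusted p 0.911). A difference was not detectable at this depth.

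The contrast of suprabasal with basal cadherins depended on which pair was used. With Dsg1a, Dsg1b and Dsc1 against Dsg3 and Dsc3, the suprabasal share of counts was 83.8% and 79.7% in cKO and 86.4% and 85.97% in control. Both cKO shares lay below both control shares. The Wilson intervals were 80.1% to 87.0% and 72.2% to 85.6% in cKO, and 83.3% to 88.96% and 84.0% to 87.7% in control, and they overlapped between groups. The log2 ratio was 2.16 ± 0.29 in cKO and 2.63 ± 0.03 in control (SD, n = 2), a difference of -0.47 (exact permutation p = 0.333). For the desmogleins alone, Dsg1a with Dsg1b against Dsg3, the difference in log2 ratio was -3.26, resting on 2 to 10 counts of Dsg3 per library. The desmocollins went the other way. Dsc1 took 31.8% of the Dsc1 and Dsc3 counts in cKO replicate 1 (23.0% to 42.1%) and 21.4% in cKO replicate 2 (10.2% to 39.5%). In control it took 4.0% in replicate 1 (1.37% to 11.1%) and 14.4% in replicate 2 (10.3% to 19.7%). The difference in the log2 ratio of Dsc1 to Dsc3 was 2.02, and both cKO shares lay above both control shares. The interval of cKO replicate 2 overlapped both control intervals. Leaving Dsg1a out of the suprabasal side, a choice made after its values were seen, turned the combined difference from -0.47 to 0.92. All of these ratios had the smallest p the design allows, 0.333. Because counts of a 3' library are not levels per length, the shares compare libraries and not the amounts of the proteins.

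**Figure D2:**
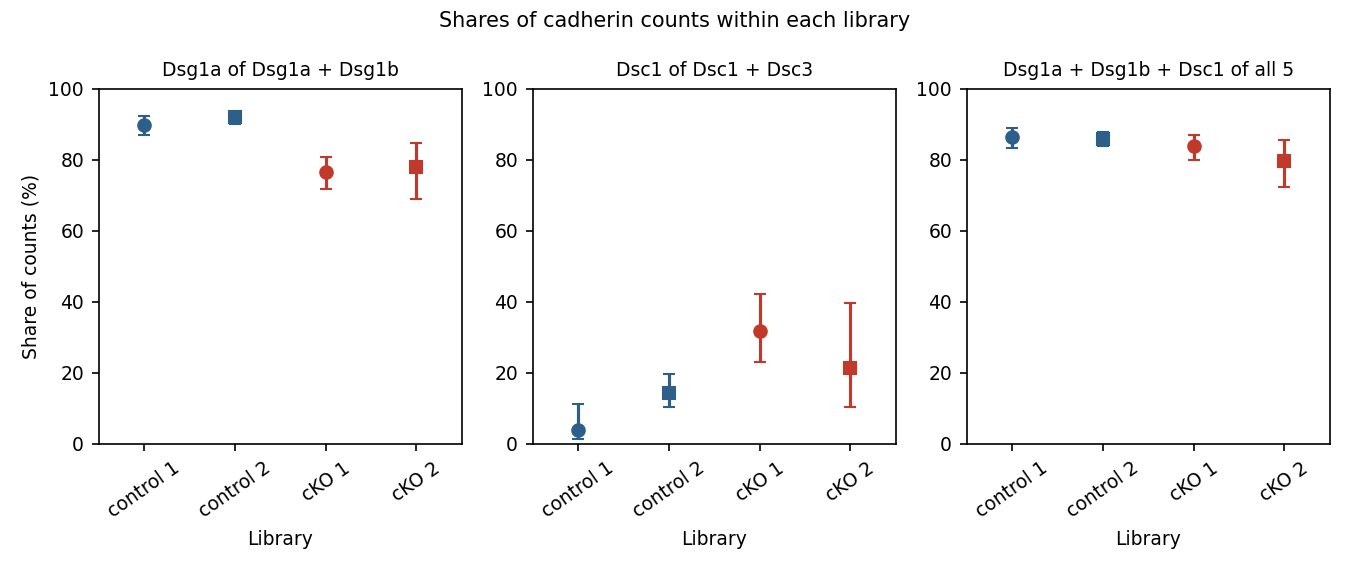
Share of counts in percent within each library (control blue, cKO red; circles replicate 1, squares replicate 2; bars are 95% Wilson intervals for counting error) for Dsg1a among Dsg1a and Dsg1b, Dsc1 among Dsc1 and Dsc3, and the suprabasal cadherins among all 5. The first share is near 77% in both cKO libraries and at 89.96% and 91.97% in control, the second is above both control values in both cKO libraries, and the third is below both control values in both. The intervals of the second share overlap between groups for cKO replicate 2, and those of the third overlap between groups.

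The plaque genes and Perp showed smaller differences. Dsp encodes desmoplakin, the link to keratin filaments. Dsp (ENSMUSG00000054889, chromosome 13, 38335270 to 38382553, plus strand) was counted 520 and 143 times in cKO, 408 and 1111 times in control, or 2103 and 1607 CPM against 2177 and 3548 CPM. Both cKO values were below both control values, with cKO replicate 1 close to control replicate 1. The control libraries differed 1.63-fold from each other, and the group means differed 1.54-fold. The log2 fold change of Dsp was -0.62 ± 0.44 (SE), with a 95% interval from -1.57 to 0.33 (edgeR adjusted p 0.810). It was -0.21 without control replicate 2. The exons of Dsp share 499 bases with Gm10129 on the opposite strand, which had 0 counts in every library.

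Perp (ENSMUSG00000019851, chromosome 10, 18720768 to 18732821, plus strand) was counted 444 and 105 times in cKO, 299 and 856 times in control. The levels were 1795 and 1180.05 CPM in cKO and 1596 and 2734 CPM in control, and the groups overlapped. The log2 fold change of Perp was -0.54 ± 0.45 (SE), with a 95% interval from -1.51 to 0.44 (edgeR adjusted p 0.880), and it was -0.08 without control replicate 2. Dsp, Perp and Pkp1 had the same order of libraries at their ends, with control replicate 2 highest and cKO replicate 2 lowest, as did Dsg1a.

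Pkp3 encodes plakophilin 3, which is found in desmosomes of all living layers. Pkp3 (ENSMUSG00000054065, chromosome 7, 140658131 to 140670423, plus strand) was counted 129 and 68 times in cKO, 171 and 262 times in control. The levels were 522 and 764 CPM in cKO and 912 and 837 CPM in control. Both cKO values were below both control values, and cKO replicate 2 was near control replicate 2. The fitted log2 fold change was -0.46 ± 0.42 (SE), with a 95% interval from -1.37 to 0.46 (edgeR adjusted p 0.898). Jup encodes plakoglobin, which serves desmosomes and adherens junctions alike. Jup (ENSMUSG00000001552, chromosome 11, 100259784 to 100288589, minus strand) was counted 11 and 6 times in cKO, 12 and 14 times in control. The levels were 44.5 and 67.4 CPM in cKO and 64.0 and 44.7 CPM in control, with each group holding 1 high and 1 low library. The log2 fold change of Jup was 0.00 ± 0.67 (SE), of either sign depending on the scaling, with a 95% interval from -1.44 to 1.44 (edgeR adjusted p 0.999).

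**Figure D3:**
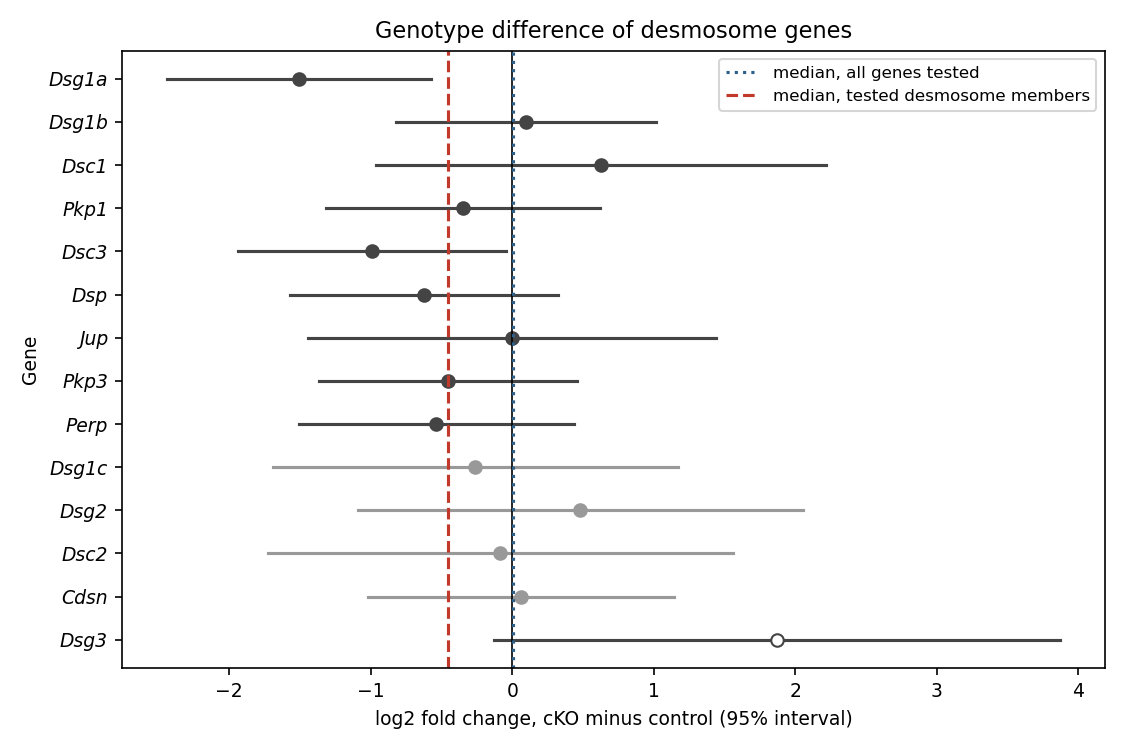
Log2 fold change (cKO minus control) with 95% intervals for the tested desmosome members (dark), 4 other desmosome genes (grey) and Dsg3 (open circle, from the fit without a count filter); lines mark the medians of the tested members, -0.46, and of all tested genes, 0.01. The intervals of Dsg1a and Dsc3 lie below 0 and all others include 0, and no gene shown passed the adjusted threshold.

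The size of several differences depended on single libraries. Control replicate 2 was the highest of the 4 libraries in 5 of the 10 members (Dsg1a, Dsc3, Dsp, Pkp1 and Perp), and in 7 members it was above control replicate 1. The library with the lowest total count, cKO replicate 2, was the lowest in 4 members. In 6 of the 10 the ratio between the control libraries was farther from 1 than the ratio between the group means. Without control replicate 2, the median log2 fold change of the same 9 members was -0.21.

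The 5 cadherin members are neighbours. Together with Dsg1c, Dsg2, Dsg4 and Dsc2 they form the 9 listed desmosomal cadherin genes of chromosome 18 between 20093987 and 20737578, a span of 644 kb in the coordinates of the deposited table, for which the submitters' processing notes name GRCm39. The other 5 members lie on 5 different chromosomes. Of the 9 cadherin genes 7 were tested and 0 were called, and their log2 fold changes ran from -1.51 for Dsg1a to 0.62 for Dsc1. The desmosome genes outside the members had fold changes nearer to 0 than that of Dsg1a. Dsg1c, the other desmoglein 1 copy, was counted 18 and 3 times in cKO, 12 and 23 times in control (log2 fold change -0.26 ± 0.66, SE). Dsg2, a desmoglein widespread in simple epithelia, had 15 and 6 against 5 and 19 counts (0.48 ± 0.73, SE). Dsc2, its desmocollin counterpart, had 7 and 8 against 10 and 18 counts (-0.09 ± 0.76, SE). Cdsn, the corneodesmosin of the outermost desmosomes, had 74 and 23 against 27 and 121 counts (0.06 ± 0.50, SE). The edgeR adjusted p of these 4 genes was 0.965 or above. Dsg4, the desmoglein of the hair shaft, had 0 counts in all 4 libraries, which allows up to 12.1 and 33.7 CPM in cKO and 16.01 and 9.58 CPM in control. Pkp2 had 1 count in cKO replicate 1 and 0 elsewhere.

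Gene groups that touch the desmosome were read by their counts in the same test. Of the 6 keratins and plakins that desmosomes anchor or bind, 0 were called in the main test, 3 had a fold change above 0 and 3 below, and the median was 0.21. Krt14, the basal keratin whose promoter drives Cre, was at 4355 and 3001 CPM in cKO and 928 and 865 CPM in control, a log2 fold change of 2.04 ± 0.44 (SE) with an edgeR adjusted p of 0.0507. It passed the threshold in 5 of 12 other fits, leaving aside one added after seeing the data, namely without a count filter (0.0101), with a mean of at least 10 CPM (0.0295), without cKO replicate 2 (0.00965), with limma-voom (0.0368) and with DESeq2 (adjusted p 0.000419). Krt1, a suprabasal keratin, was at 1.69 ± 0.52 (SE; edgeR adjusted p 0.239). It was at 0.88 without cKO replicate 1 and at 2.11 without cKO replicate 2. Krt10, also suprabasal, was at -0.18 ± 0.52 (edgeR adjusted p 0.992), with overlapping groups. Krt5, the partner of keratin 14 in the basal layer, was at 0.59 ± 0.45 (edgeR adjusted p 0.842). In the same cKO libraries Dsc3, also of the basal side, was at its 2 lowest values. Of the 9 adherens junction genes 7 were tested and 0 called, with a median of -0.34. The largest differences were -1.13 ± 0.47 for Nectin4, 0.91 ± 0.52 for Ctnnb1 and -0.90 ± 0.47 for Ctnna1 (edgeR adjusted p 0.5, 0.716 and 0.671). Nectin4 is a nectin of epidermis, Ctnnb1 the catenin most like plakoglobin, and Ctnna1 ties cadherins to actin. Ctnnb1 was at 129 and 315 CPM in cKO and at 112 CPM in each control library. Its log2 fold change was 1.44 without cKO replicate 1 and 0.22 without cKO replicate 2.

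Among 7 proteases and inhibitors that act on desmosomal proteins in the outer layers, 5 were tested and 1 was called, where 0.848% of all tested genes were. Klk6, a kallikrein, rose, counted 61 and 32 times in cKO but 0 times in either control library (edgeR adjusted p 0.000444, and 0.152 with limma-voom). The median of the 5 log2 fold changes was 1.09. All 5 were above 0, as were 50.4% of all tested genes, but Spink5, at 0.04, was at -0.24 with library totals as the scaling. Both cKO values lay above both control values in 3 of the 5, against 18.9% of all tested genes. The other 2 of the 5, Klk5 and Spink5, had overlapping groups. The median was the value of Klk7, at 1852 and 2147 CPM in cKO and 293 and 1574 CPM in control. Its log2 fold change depended on single control libraries, at 0.34 without control replicate 1 and 2.78 without control replicate 2. Klk6 and Klk8 passed the count filter only through the cKO libraries, which favours higher values there. Of 8 regulators tied to desmosomes, 4 were tested and 0 called, with a median of 0.02. Atp2a2, the calcium pump of the endoplasmic reticulum whose loss in Darier disease weakens desmosomes, was at 0.46 ± 0.56. Grhl1, a transcription factor known to act on desmosomal cadherin genes, was at -0.19 ± 0.49, and Trp63, which encodes p63, at 0.03 ± 0.52 (SE; edgeR adjusted p 0.941 or above for all 3). Of the 4 markers of the outermost living layer 1 was called. The summed level of Flg, Flg2, Lor and Ivl was 15927 and 9137 CPM in cKO and 2572 and 7696 CPM in control. Flg, encoding profilaggrin, was at 8968 and 5383 CPM in cKO against 107 and 313 CPM and was called (edgeR adjusted p 0.000593), while Ivl, encoding involucrin, was at 615 and 528 CPM against 1371 and 1268 CPM and was not (adjusted p 0.359). Flg2 and Lor overlapped between groups, with log2 fold changes of 0.64 ± 0.59 and 0.31 ± 0.67 (SE; edgeR adjusted p 0.898 and 0.988). The part of a shift between layers in the desmosome values was not tested.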

How the data were processed

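RNA from separated dorsal epidermis was made into 3' transcriptome libraries (QIAseq UPX) and converted for MGI sequencing, per the labels' protocols. The authors deposited 1 table of raw counts per gene with a column for each of the 4 libraries. The submitters' processing notes name Trim Galore 0.6.7, Trimmomatic 0.39, cutadapt 3.7, STAR 2.7.10a, featureCounts 2.0.1 and GRCm39; annotation, use of strand, molecular identifiers and handling of multiple alignments are not given in the sources used here. Samples were grouped by title, 2 per group, with replicate numbers from the titles.

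Counts were tested with edgeR 4.0.16 (R 4.3.3): filterByExpr (minimum count 10, minimum total 15), TMM, estimateDisp, glmQLFit and glmQLFTest with genotype as the term, and Benjamini-Hochberg adjustment over 4243 genes holding 87.6% of counts. Standard errors are the absolute log2 fold change over the square root of F, and intervals use the test's degrees of freedom. The fit was tested on simulated data. Ratios within libraries used a pseudocount of 0.5 and an exact two-sided permutation test. Copies were sought with blastn 2.17.0 in GENCODE M21 transcripts. Alternatives used DESeq2 1.42.0, limma-voom (limma 3.58.1), other scalings and filters, a replicate block, summed Dsg1 copies and each library left out.

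Members and lists were chosen with earlier results of these data known. Named genes are Stim1, Stim2, the members, 6 other desmosome genes, called genes of each other list or else up to 3 with the largest absolute fold change among those averaging 10 CPM or more, and the 3 genes nearest to Dsc1 and to Dsc3. Flg, Flg2, Lor, Ivl, Krt10, Klk5, Klk7, Klk8, Spink5 and the marker genes named were singled out after their values were seen. No sequences are printed.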

Additional observations from a re-analysis of the deposited data

How the results depend on the processing

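Depth limited Dsg3, Jup and Dsc1 most, and 2 libraries per group allowed no permutation p under 0.333. Under the 12 alternatives other than the crossed block, 0 members were called in either direction, and the median log2 fold change of the 9 members tested ran from -0.73 with library totals as the scaling to -0.21 without control replicate 2. In 5 alternatives Dsg3 passed the filter too, and with it the median without control replicate 2 was -0.15. The counts over all genes moved more. Genes called higher (28) became 49 without a count filter, 16 with the replicate block and 12 with limma-voom, and genes called lower (8) became 15 with library totals, 26 without a count filter, 15 with a mean of at least 10 CPM, 1 with the replicate block and 3 with limma-voom; the cause was not tested. Leaving out 1 library gave 34 to 59 higher and 8 to 34 lower genes. The replicate number pairs libraries by nothing in the labels, and deviations of same-numbered libraries had a correlation of -0.20 across genes. With crossed numbers as a block, chosen after seeing the data, 90 genes were called higher and 57 lower, 1 member (Dsg1a) among them.

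Members near 0 changed sign. Jup was at 0.0019 with DESeq2 size factors, 0.0042 with the replicate block, 0.019 with DESeq2 and 0.030 with the crossed block, and ran from -0.26 to 0.29 without single libraries. Dsg1b was at -0.15 with library totals and ran from -0.11 to 0.23 without single libraries, Dsc1 from -0.076 to 2.51 and Pkp1 from -0.67 to 0.11. Dsg1a stayed between -1.76 and -1.22 in every alternative that kept its row, with adjusted p from 0.0517 to 0.843 without the crossed block. The suprabasal to basal log2 ratio difference turned to 2.02 with Dsc1 and Dsc3 alone and to 0.92 without Dsg1a, and ran from -0.68 to -0.27 without single libraries. Its value with the replicate block was -0.47, with an exact sign-flip permutation p of 0.5, the smallest that this pairing allows. The Dsg1a to Dsg1b difference ran from -1.76 to -1.40.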
